A study of Mus musculus with 24 samples.

Results

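Accessible chromatin at the genes of the JAK-STAT pathway was examined in germinal centre (GC) B cells of mice carrying 1 floxed allele of Crebbp, of Kmt2d, or of both. The genes were the 4 Janus kinases Jak1, Jak2, Jak3 and Tyk2, the transcription factors Stat3, Stat5a, Stat5b and Stat6, and the inhibitor Socs1. A peak was taken as a member when it overlapped the gene body of 1 of these 9 genes extended by 50 kb on each side, which gave 128 of the 65483 consensus peaks of the series. Jak1 had 24 such peaks, Jak2 had 12, Jak3 had 19, Tyk2 had 13, Stat3 had 19, Stat5a had 16, Stat5b had 21, Stat6 had 14 and Socs1 had 15. Stat5b, Stat5a and Stat3 lie next to each other on chromosome 11, and 16 peaks fell in more than 1 window, so these windows are not independent. Many member peaks lie at neighbouring genes, and their assignment to a pathway gene rests on position alone.

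ATAC-seq, in which a transposase inserts adapters into open chromatin, was run on GC B cells sorted from spleens on day 10 after immunization with sheep red blood cells (SRBC). There were 4 WT mice (Cg1Cre+/-), 4 C mice (Cg1Cre+/-, Crebbp fl/+), 4 K mice (Cg1Cre+/-, Kmt2d fl/+) and 5 CK mice (Cg1Cre+/-, Crebbp fl/+, Kmt2d fl/+), on a C57BL/6J background and, per the study, 8 weeks old. All 4 genotypes thus carried the Cre transgene, which is driven from the immunoglobulin Cg1 locus and is active in B cells that have been activated, and the mutant alleles were heterozygous. CREBBP is a histone acetyltransferase and KMT2D a histone H3K4 methyltransferase, and both act at enhancers. Each library came from 1 mouse and held between 17483706 and 21857738 fragments counted in peaks.

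The study describes female mice, but fragments on the Y chromosome outside its pseudoautosomal end were present in 9 of the 17 libraries, at 0.00738% to 0.00852% of fragments, and made up at most 5.58e-06% in the other 8. The 9 were 2 of the 4 WT, 2 of the 4 C, 3 of the 4 K and 2 of the 5 CK libraries, so this signal was also fitted as a covariate. The total share of fragments on the Y chromosome, pseudoautosomal end included, ran differently among the mice and was a separate covariate. Fragments in peaks of 60% GC or more made up 18% to 19.3% of WT libraries, 18.1% to 18.8% of C libraries, 19% to 20.4% of K libraries and 19.3% to 20.7% of CK libraries. B cell and GC B cell marker promoters were open, among them Ms4a1 at 149 CPM (fragment counts in the peak scaled to library size by TMM) in WT. The T cell genes Cd3e, Cd3g, Cd4 and Cd8a had no peak at a promoter. Nor did the myeloid genes Lyz2 and Itgam and the NK cell genes Ncr1, Klrb1c and Klrk1. Trac was not searched, since promoters were taken from protein-coding genes only. Cd3d, Lck and the other 3 of the 5 myeloid markers had a promoter peak, with the 3 myeloid ones at 1.32 to 14.2 CPM in WT.

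Janus kinases sit on the cytoplasmic tails of cytokine receptors and phosphorylate each other and the receptor once a cytokine binds. STAT proteins dock there, are phosphorylated, pair up and enter the nucleus, where they bind a palindrome of TTC and GAA. SOCS1 is itself induced by STATs, binds the kinases and shuts the signal down. In the GC, the cytokines IL-4 and IL-21 from T follicular helper cells reach B cells through this pathway, with STAT6 and STAT3 downstream of them, and JAK-STAT genes are recurrently altered in B-cell lymphomas.

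The sequences that the results turn on are given here. The first is the central 300 bases (plus strand, GRCm38.p6) of a peak upstream of Jak2 that was less accessible in K and in CK. It is shown because it was the only called peak that held a STAT-type motif in its centre. The capitals mark TTC and GAA separated by 4 bases, the spacing preferred by STAT6, which here contains GAGGAA, the core that PU.1 binds, and further on the reverse complement of GAGGAA.
Jak2 upstream peak, chr19:29239926-29240225: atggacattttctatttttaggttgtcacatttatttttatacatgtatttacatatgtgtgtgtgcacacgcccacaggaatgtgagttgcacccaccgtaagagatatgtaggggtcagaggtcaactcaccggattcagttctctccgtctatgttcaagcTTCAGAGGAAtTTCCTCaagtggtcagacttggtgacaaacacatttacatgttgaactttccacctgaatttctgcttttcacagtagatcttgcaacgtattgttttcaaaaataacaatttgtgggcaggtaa
The second is the RefSeq promoter of Stat5b (minus strand, GRCm38.p6, 250 bases before to 50 bases after the start), which overlaps the only called peak among the promoter peaks named for the 9 genes. It was 82.7% GC and held none of the 3 motifs searched, so no base is in capitals.
Stat5b promoter, chr11:100850532-100850831: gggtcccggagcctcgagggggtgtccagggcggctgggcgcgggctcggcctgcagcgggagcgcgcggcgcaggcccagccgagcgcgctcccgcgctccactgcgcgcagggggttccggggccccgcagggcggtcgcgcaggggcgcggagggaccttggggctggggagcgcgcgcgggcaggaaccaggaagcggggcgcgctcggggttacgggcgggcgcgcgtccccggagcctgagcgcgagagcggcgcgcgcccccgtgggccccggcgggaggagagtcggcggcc

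The remaining member peaks with a STAT-type motif in their central 300 bases are shown by the motif with 10 bases on either side (plus strand, GRCm38.p6). In 5 peaks the motif in capitals was TTCNNNGAA, the form that most STAT dimers bind.
Cavin1, Stat3 window, chr11:100957463-100957491: aaaacaaggcTTCCCGGAAggcagttcct
Socs1 window, intergenic, chr16:10758460-10758488: gagatctggcTTCCTGGAAtgatggtgtc
Jak2, 22.8 kb upstream, chr19:29228341-29228369: cagttccctaTTCTCAGAAcccagaatct
Plgrkt, Jak2 window, chr19:29355474-29355502: atgcattcttTTCATGGAAgaagggctga
Jak3 window, intergenic, chr8:71729099-71729127: ttaagcagggTTCTGGGAAtctaactcag
In 6 more peaks the capitals mark TTC and GAA separated by 4 bases.
Stat6 window, intergenic, chr10:127631829-127631858: gtgaaaaactTTCCCAAGAAgcttggctgc
Stat3 intron, chr11:100897819-100897848: tactgatgaaTTCTCAGGAAtgaatttcca
Stat3 exon, chr11:100905118-100905147: ctctagtcagTTCTAGAGAAagaagccatc
Rmi2 start, Socs1 window, chr16:10834932-10834961: ttctatttaaTTCAGTTGAAtctttcagct
Insl6 start, Jak2 window, chr19:29324287-29324316: aagttttcacTTCACATGAAttgctccgtt
Jak1 intron, chr4:101182954-101182983: actgactcacTTCCCCTGAAagcacttctc
TTCNNNGAA was thus found in 5 of 128 member peaks, or 3.91%, against 8.22% of all peaks. The spacing of 4 bases was found in 7 member peaks, or 5.47%, against 7% of all peaks, and GAGGAA or its reverse complement in 38, or 29.7%, against 31.4%. Both strands were read, and the longer STAT-type motif can overlap GAGGAA, as it did upstream of Jak2. Of the RefSeq promoters of all 9 genes, 11 entries, none held either STAT-type motif, which occurred in 8.30% and 6.95% of 32851 promoters.

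To ask whether the mutant alleles altered accessibility at these genes, every peak of the series was tested and the calls at member peaks were then counted. Calls were made by the quasi-likelihood F test of edgeR, and a peak was called where p, adjusted by Benjamini and Hochberg's method over all 65483 peaks, was below 0.01. In CK against WT, 7 of 128 member peaks were called, or 5.47%, while 6.84% of all peaks were called. All 7 stayed called with Y signal outside the pseudoautosomal end as a covariate. In that fit 8 member peaks were called, a count given without the share of all peaks. Of the 7, 3 were more accessible and 4 less accessible, against 3.54% and 3.3% of all peaks. In K against WT 1 member peak was called, or 0.781%, against 1.48% of all peaks. In C against WT no member peak was called by edgeR or DESeq2, 0.16% of all peaks were, and 6 member peaks had an unadjusted p under 0.05, against 8.9% of all peaks. The member peaks were therefore called no more often than the peaks of the genome at large.

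The shifts were small. The median log2 fold change over the 128 peaks was -0.012 for C, 0.0088 for K and -0.029 for CK, and over all peaks it was -0.00026, 0.0015 and 0.0029. In CK, 73 member peaks lay below 0 and 55 above, where 49.4% of all peaks lay below 0. The median absolute log2 fold change of member peaks in CK was 0.135, against 0.165 for all peaks. Member peaks also held more fragments, with a median level of 10.7 CPM against 4.35 CPM for all peaks. The part of this in the smaller fold changes was not tested. Every CK mouse lay on one side of every WT mouse in 10 member peaks, against 13% of all peaks. The same held for K in 8 member peaks and for C in 2, against 11.3% and 5.66% of all peaks. No member peak passed both the adjusted p and a fold change of 1.5, which the study's methods ask for in a differential peak. The legend of the study's peak heatmap gives the adjusted p alone.

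**Figure D1:**
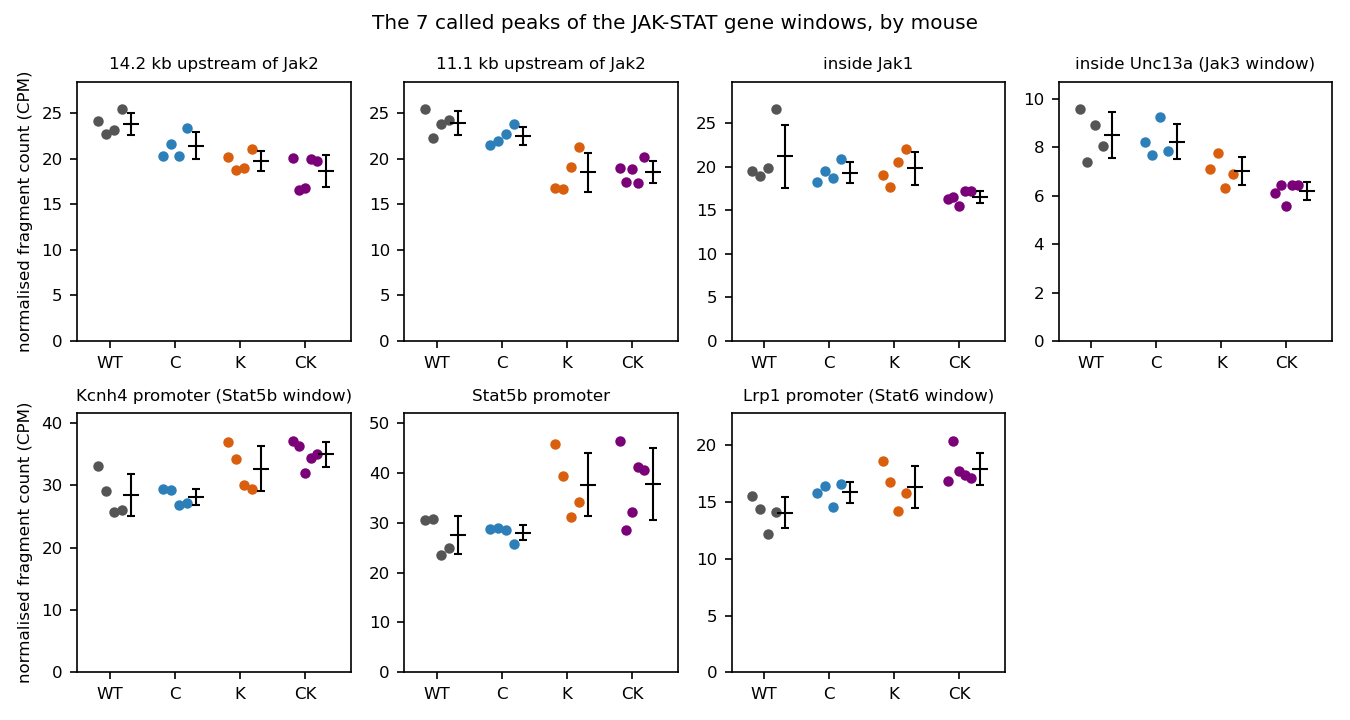
Accessibility (CPM, y axis from 0) of the 7 member peaks called in CK against WT, with 1 point per mouse for WT, C, K and CK and the mean ± SD beside each group. The 4 peaks in the upper row were less accessible in CK and the 3 in the lower row more accessible, with CK mice at 28.6 to 46.4 CPM at the Stat5b promoter.

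Jak2, the kinase of the interferon-gamma, growth hormone and several other receptors, lost accessibility at a pair of intergenic peaks upstream of its start, while its promoter was not called. The peak 11.1 kb upstream (chr19:29239406-29240744, 42.0% GC) is the one printed above. It measured 25.4, 22.2, 23.8 and 24.2 CPM in the WT mice, 21.5, 21.9, 22.7 and 23.8 in the C mice, 16.8, 16.7, 19.1 and 21.3 in the K mice, and 19, 17.4, 18.9, 17.3 and 20.2 in CK. No K or CK mouse reached the lowest WT mouse, and C overlapped WT. It fell by 22.6% in K (log2 fold change -0.37 ± 0.078 SE, adjusted p = 0.00714 in edgeR) and by 22.3% in CK (-0.36 ± 0.074, adjusted p = 0.00161). The C value was -0.09 ± 0.077, which did not pass (edgeR adjusted p = 0.797). The call in K was lost with GC content offsets (-0.30, edgeR adjusted p = 0.0192) and without any 1 of 6 mice, with WT mice 1, 3 and 4 and K mice 1, 2 and 3 left out in turn, where it ran from -0.33 to -0.38. The call in CK was kept under GC content offsets (-0.29, edgeR adjusted p = 0.00712).

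The peak 14.2 kb upstream of Jak2 (chr19:29236586-29237595, 40.6% GC) was also lower in both genotypes with a floxed Kmt2d allele. It measured 24.1, 22.7, 23.1 and 25.4 CPM in WT, 20.3, 21.6, 20.3 and 23.4 in the C mice, 20.2, 18.7, 19 and 21.1 in the K mice, and 20.1, 16.6, 16.8, 19.9 and 19.7 in CK. Again the K and CK mice were all under the WT range. It fell by 21.7% in CK (-0.35 ± 0.072, edgeR adjusted p = 0.00171) and was at -0.27 ± 0.076 in K (edgeR adjusted p = 0.0387) and -0.15 ± 0.075 in C (edgeR adjusted p = 0.565), neither of which passed. With GC content offsets the CK value was -0.26 and no longer passed (edgeR adjusted p = 0.0167), and without WT mouse 4 it was -0.32 (edgeR adjusted p = 0.0108). The Jak2 promoter (chr19:29251004-29254247) was at 70.7 ± 3.87 CPM (SD, n = 4) in WT and 68.8 ± 4.52 (n = 5) in CK, which gave -0.04 ± 0.053 on the log2 scale. The most accessible peak outside promoters, in the gene body at an annotated exon, was at 49.9 ± 1.80 CPM in WT and 52 ± 3.05 in CK. The decrease around Jak2 was thus seen at the upstream pair and not in these stronger peaks. In these sorted bulk samples, fewer cells with an open site and less opening per cell cannot be told apart.

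Jak1, the kinase shared by the receptors of the gamma-chain, IL-6 and interferon families, had 17 peaks overlapping its body, and 16 of them lay below 0 in CK. The exception was the promoter. Over the whole window 20 of 24 peaks lay below 0 in CK, with a median log2 fold change of -0.17, and the medians in K and C were -0.07 and -0.05. This is a description of peaks that share a gene and the same libraries, and 1 of the 24 was called. The called peak lies inside the gene, 79.1 kb downstream of its start, and overlaps an exon and the start of an annotated shorter transcript (chr4:101184819-101186159, 45.3% GC). It measured 19.5, 18.9, 19.9 and 26.6 CPM in WT, 18.2, 19.5, 18.7 and 20.9 in the C mice, 19, 17.7, 20.6 and 22 in the K mice, and 16.3, 16.5, 15.5, 17.2 and 17.2 in CK. Every CK mouse lay below every mouse of the other genotypes. It fell by 21.9% in CK (-0.36 ± 0.088, edgeR adjusted p = 0.00741). WT mouse 4 stood above the other WT mice, and without it the value was -0.23 and did not pass (edgeR adjusted p = 0.0604). It also missed the threshold without WT mouse 3 or CK mouse 1, 2, 3 or 4, at -0.33 to -0.39. The call was lost as well under GC content offsets (-0.31, edgeR adjusted p = 0.0145) and with the total Y share, pseudoautosomal end included, as a covariate (-0.33, edgeR adjusted p = 0.0226), but not with Y signal outside that end (-0.36, edgeR adjusted p = 0.00600). With only the WT and CK mice fitted it also missed the threshold (-0.36, edgeR adjusted p = 0.0134).

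The Jak1 promoter (chr4:101264309-101265490, 65.4% GC) went the other way without passing the threshold. It was at 51.0 ± 4.38 CPM in WT, 49.6 ± 2.06 in the C mice, 58.4 ± 5.41 in the K mice and 58.1 ± 4.27 in CK, and the groups overlapped. Its log2 fold change was 0.19 ± 0.064 in CK (edgeR adjusted p = 0.0464) and 0.20 ± 0.067 in K (edgeR adjusted p = 0.0869). The most accessible Jak1 peak outside promoters, in an intron, was at 60.0 ± 3.62 CPM in WT and 56.3 ± 2.22 in CK (-0.09 ± 0.047, edgeR adjusted p = 0.206).

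**Figure D2:**
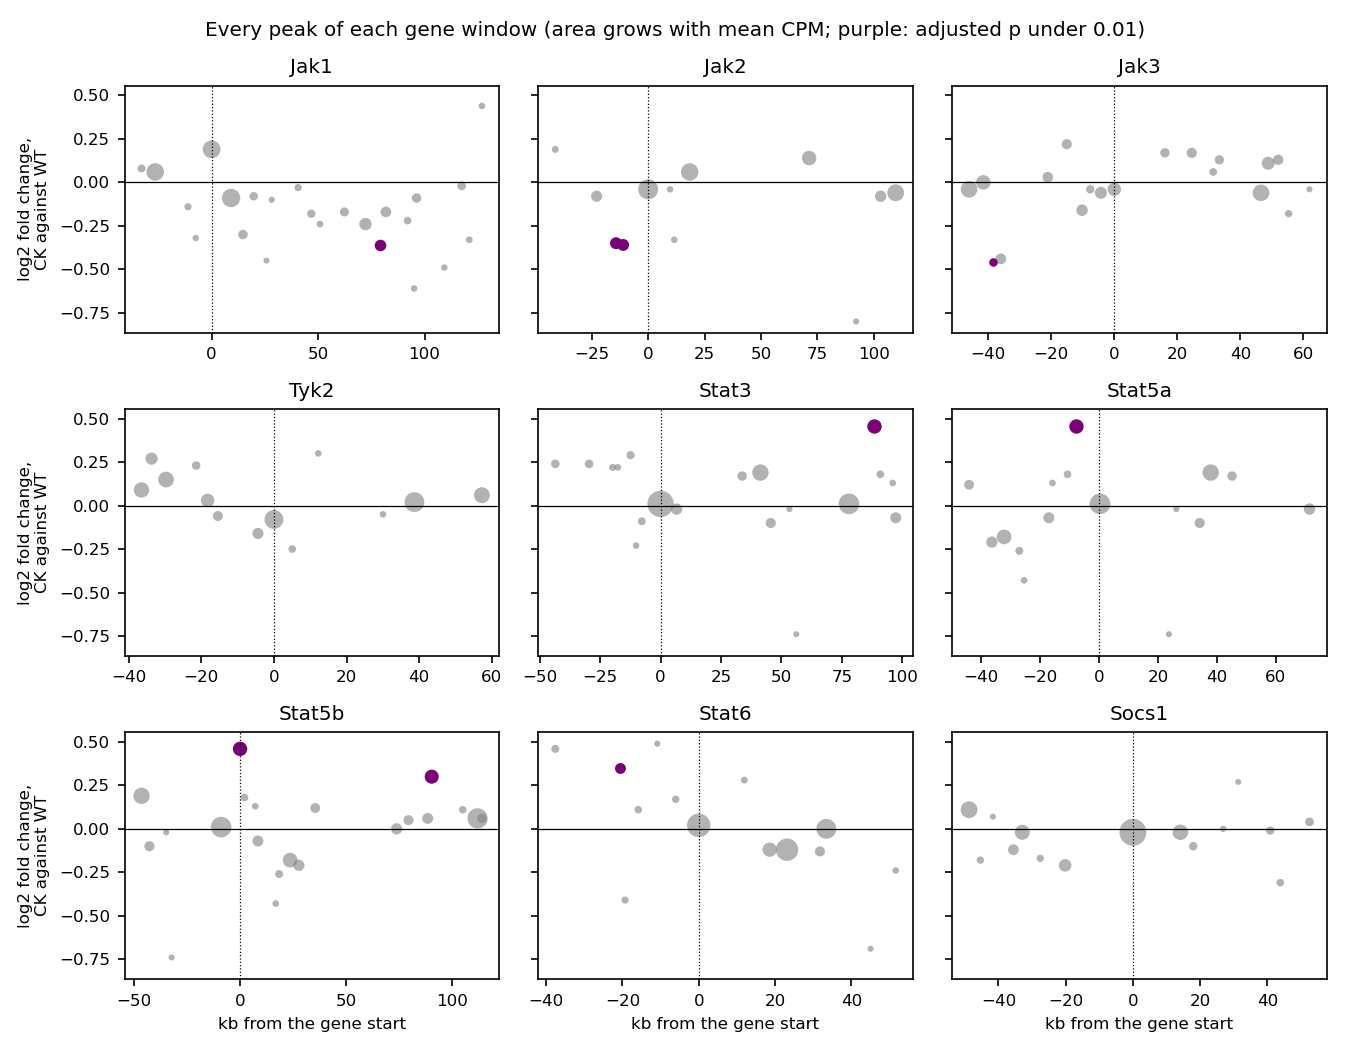
Log2 fold change in CK against WT (y axis) of every peak in the window of each of the 9 genes by its distance in kb from the gene start (x axis, upstream negative); the point area grows with the mean CPM and called peaks are purple. The called losses sit 11.1 and 14.2 kb upstream of Jak2, inside Jak1 and 38.6 kb upstream of Jak3, and the Stat5b promoter appears in the Stat3, Stat5a and Stat5b panels.

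Jak3, which pairs with the common gamma chain of the IL-4 and IL-21 receptors, was not called at its own promoter, and the 1 called peak of its window lay 38.6 kb upstream, inside the neighbouring gene Unc13a (chr8:71637168-71637668, 46.3% GC). That peak measured 9.58, 7.42, 8.95 and 8.08 CPM in WT, 8.21, 7.67, 9.25 and 7.86 in the C mice, 7.11, 7.76, 6.33 and 6.92 in the K mice, and 6.10, 6.46, 5.58, 6.43 and 6.45 in CK. All CK mice were below all WT and all C mice. It fell by 27.2% in CK (-0.46 ± 0.10, edgeR adjusted p = 0.00312), and the value in K was -0.28 ± 0.11 (edgeR adjusted p = 0.125). With GC content offsets it kept its call in CK (-0.41, edgeR adjusted p = 0.00866). Without WT mouse 1 or WT mouse 3 the CK value was -0.40 or -0.43 and did not pass (edgeR adjusted p = 0.0145 and 0.0143). The Jak3 promoter (chr8:71675684-71677294) was at 28.6 ± 1.41 CPM in WT and 27.8 ± 1.82 in CK, a log2 fold change of -0.04 ± 0.061. The most accessible peak outside promoters, also in Unc13a and 65.5% GC, was at 47.4 ± 1.90 CPM in WT and 46.1 ± 2.57 in CK. It was not called on the deposited counts (-0.04, edgeR adjusted p = 0.653) but was lower in CK with GC content offsets (-0.23, edgeR adjusted p = 0.00171).

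Tyk2, the kinase of the type I interferon, IL-10 and IL-12 receptors, had no called peak among 13. Its promoter (chr9:21130757-21132279) was at 64.1 ± 3.42 CPM in WT and 60.6 ± 2.96 in CK (-0.08 ± 0.051, edgeR adjusted p = 0.311). The peak of lowest p in CK was the Pde4a promoter, 33.7 kb upstream of Tyk2 and 68.2% GC, at 19.9 ± 1.72 CPM in WT and 24.1 ± 1.87 in CK. Its log2 fold change was 0.27 ± 0.085 (edgeR adjusted p = 0.0305), and it passed with the replicate number as a block (0.30, edgeR adjusted p = 0.00408). The most accessible peak outside promoters was at 38.4 ± 3.13 CPM in WT and 42.7 ± 1.91 in CK (0.15 ± 0.064, edgeR adjusted p = 0.111).

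Among the STAT genes, the Stat5b promoter was called in CK, alone among the promoter peaks named for the 9 genes, and it gained accessibility. STAT5B and its close relative STAT5A act downstream of IL-2 family cytokines and support B cell survival and self-renewal. The peak (chr11:100849666-100851462, 65.1% GC) overlaps an exon of Stat5b and contains the RefSeq promoter printed above. It measured 30.6, 30.8, 23.6 and 24.9 CPM in WT, 28.7, 28.9, 28.6 and 25.8 in the C mice, 45.7, 39.4, 31.2 and 34.2 in the K mice, and 46.4, 28.6, 32.1, 41.1 and 40.6 in CK. All K mice lay above all WT mice, and CK mouse 2 lay within the WT range. The gain in CK was 37.4% (0.46 ± 0.12, edgeR adjusted p = 0.00874). In K the value was of like size but did not pass (0.45 ± 0.12, edgeR adjusted p = 0.0292), and in C it was 0.03 ± 0.12 (edgeR adjusted p = 0.972).

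Within WT and within CK, the Stat5b promoter level tended to be higher in libraries with a larger GC-rich share. Among WT mice, the share was 19% and 19.3% where the promoter measured 30.6 and 30.8 CPM, and 18.2% and 18% where it measured 23.6 and 24.9 CPM. CK mouse 1 had the highest share, 20.7%, and the highest promoter level of any mouse, and CK mouse 2 had the lowest share of its group, 19.3%, and the lowest level. With GC content offsets the log2 fold change was 0.26 and no longer passed (edgeR adjusted p = 0.0475). It also missed the threshold in DESeq2 (0.45, DESeq2 adjusted p = 0.0166), and without CK mouse 1 it was 0.37 (edgeR adjusted p = 0.0340). The share also ran higher in K and CK than in WT and C, and this peak counts toward it. Genotype and GC-rich share thus cannot be told apart here, and the part of the share in the Stat5b gain was not tested.

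**Figure D3:**
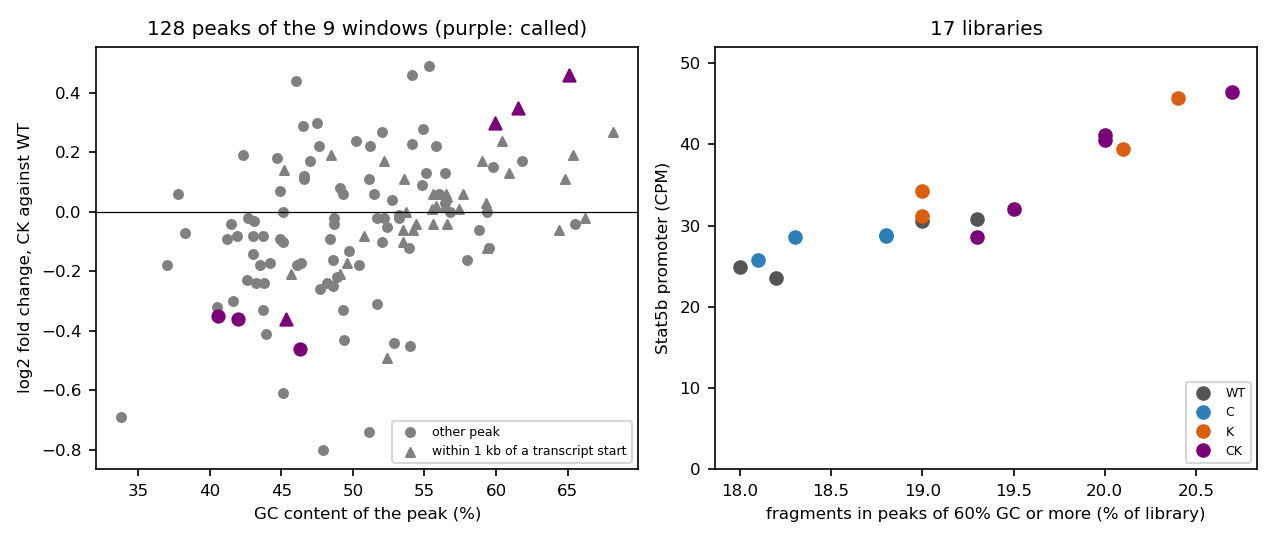
Left, GC content (%) against log2 fold change in CK against WT for the 128 member peaks, with triangles for peaks within 1 kb of a transcript start and called peaks in purple; right, Stat5b promoter accessibility (CPM) against the percent of fragments in peaks of 60% GC or more for the 17 libraries, by genotype. The 3 called gains lie at 59.9% to 65.1% GC and the 4 called losses at 40.6% to 46.3% GC, and CK mouse 1 has both the highest share in GC-rich peaks, 20.7%, and the highest Stat5b value, 46.4 CPM.

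The promoters of the other STAT genes were not called in any genotype. The Stat3 promoter (chr11:100938120-100940204) was at 127 ± 4.23 CPM in WT, 125 ± 5.73 in the C mice, 128 ± 6.56 in the K mice and 129 ± 3.15 in CK, with a log2 fold change of 0.01 ± 0.041 in CK. STAT3 carries the IL-21 and IL-6 signals. The Stat5a promoter (chr11:100859664-100861641) was at 73.5 ± 2.45 CPM in WT and 73.8 ± 2.23 in CK (0.01 ± 0.046). The Stat6 promoter (chr10:127641842-127644164) was at 99.8 ± 2.54 CPM in WT and 101 ± 2.16 in CK (0.02 ± 0.038). All 3 promoters overlapped between WT and each mutant genotype, and their edgeR adjusted p-values in CK were 0.871, 0.950 and 0.730. Since the standard errors were 0.046 or less, differences of the size found at the Stat5b promoter would have stood well outside the error at these 3 peaks.

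Outside promoters, the most accessible Stat3 peak, in an intron, was at 18.2 ± 1.83 CPM in WT and 18 ± 1.64 in CK. The most accessible such peak of the Stat5a and Stat5b windows is 1 peak in a Stat5b intron (chr11:100823861-100827129). It was at 36.9 ± 4.37 CPM in WT and 32.7 ± 2.63 in CK (-0.18 ± 0.072, edgeR adjusted p = 0.0937), opposite in sign to the promoter of the same gene. For Stat6 the corresponding peak, at the neighbouring gene Nab2, was at 34.1 ± 2.58 CPM in WT and 31.4 ± 2.12 in CK (-0.12 ± 0.06, edgeR adjusted p = 0.183). None of these peaks was called.

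The remaining called peaks of the STAT windows were promoters of neighbours. The Kcnh4 promoter (chr11:100758968-100760317, 59.9% GC), 90.4 kb downstream of the Stat5b start, measured 33.0, 29.0, 25.7 and 26.0 CPM in WT, 29.3, 29.2, 26.8 and 27.2 in the C mice, 36.9, 34.2, 30.0 and 29.3 in the K mice, and 37.1, 36.2, 32, 34.3 and 35.0 in CK. Kcnh4 encodes a potassium channel subunit. WT mouse 1 overlapped the CK mice, and the gain in CK was 22.9% (0.30 ± 0.074, edgeR adjusted p = 0.00802). The Lrp1 promoter (chr10:127620923-127622446, 61.5% GC), 20.5 kb upstream of Stat6, measured 15.5, 14.4, 12.2 and 14.1 CPM in WT, 15.8, 16.4, 14.6 and 16.6 in the C mice, 18.6, 16.8, 14.2 and 15.8 in the K mice, and 16.9, 20.4, 17.7, 17.4 and 17.1 in CK. Lrp1 encodes an endocytic receptor. All CK mice were above all WT mice, with a gain of 27.6% (0.35 ± 0.086, edgeR adjusted p = 0.00690). With GC content offsets neither gain passed, with 0.20 for Kcnh4 (edgeR adjusted p = 0.0257) and 0.26 for Lrp1 (edgeR adjusted p = 0.0321), and the Lrp1 gain also missed with the total Y share as a covariate (0.32, edgeR adjusted p = 0.0228), though not with Y signal outside the pseudoautosomal end (0.35, edgeR adjusted p = 0.00601).

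With only the WT and CK mice fitted, none of the 3 gains passed, at 0.29 for Kcnh4, 0.35 for Lrp1 and 0.45 for Stat5b (edgeR adjusted p = 0.0113, 0.0130 and 0.0118). The gains also depended on single mice. The Kcnh4 gain missed the threshold without WT mouse 2, 3 or 4, C mouse 2 or 4, or CK mouse 1, 2, 4 or 5, at 0.25 to 0.31, and the Lrp1 gain without WT mouse 2, 3 or 4 or CK mouse 1, 2, 3 or 4, at 0.29 to 0.37. The Stat5b promoter missed it without any 1 of WT mice 3 and 4, any C mouse, K mouse 2, and CK mice 1, 4 and 5, at 0.37 to 0.46.

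Socs1, the feedback inhibitor of the kinases, had no called peak among 15. Its promoter (chr16:10784276-10786833, 66.2% GC) was at 133 ± 6.35 CPM in WT, 132 ± 3.71 in the C mice, 134 ± 10.1 in the K mice and 131 ± 3.61 in CK. The log2 fold change in CK was -0.02 ± 0.045 (edgeR adjusted p = 0.804) on the deposited counts and -0.21 with GC content offsets, where it passed (edgeR adjusted p = 0.000202). The peak of lowest p in CK, at the neighbouring gene Prm1, was at 25.7 ± 2.82 CPM in WT and 22.2 ± 0.916 in CK (-0.21 ± 0.077, edgeR adjusted p = 0.0665). The most accessible peak outside promoters was at 39.2 ± 2.20 CPM in WT and 38.6 ± 1.94 in CK.

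**Figure D4:**
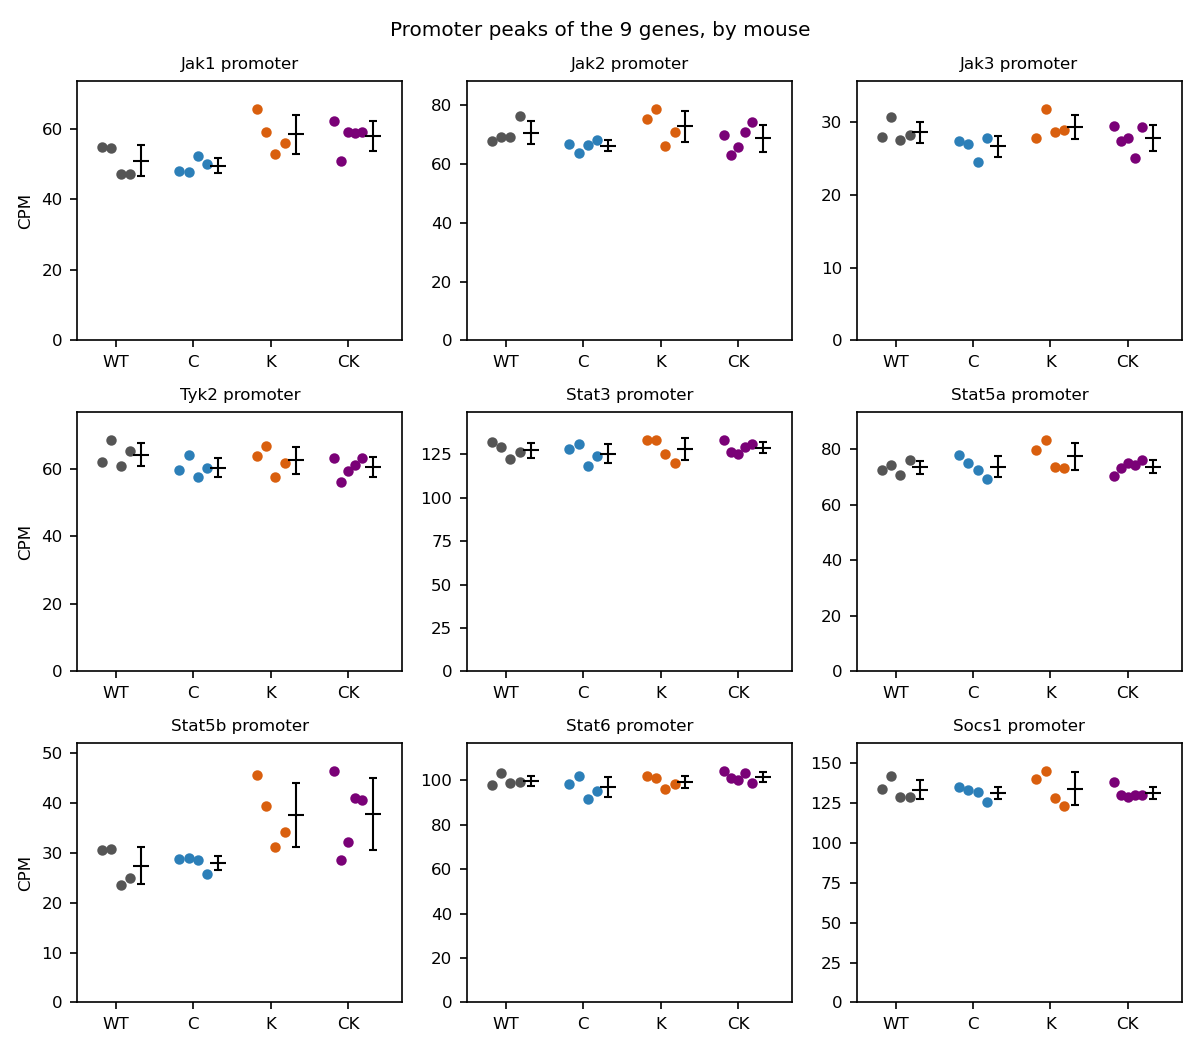
Accessibility (CPM, y axes from 0 and scaled per gene) of the promoter peak of each of the 9 genes, with 1 point per mouse and the mean ± SD beside each genotype. The Stat5b promoter rises from 27.5 CPM in WT to 37.8 CPM in CK, while the Stat3, Stat5a, Stat6 and Socs1 promoters overlap between WT and each mutant genotype.

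The called gains and losses at member peaks differed in GC content. The 3 gains were promoters of 59.9% to 65.1% GC, and the 4 losses had 40.6% to 46.3% GC. The loss inside Jak1 also overlapped a transcript start and is counted with the promoter class below. Of the member peaks, 38 lay within 1 kb of a transcript start of any protein-coding gene, or 29.7%, against 24.7% of all peaks. In CK 57.9% of these 38 lay above 0, against 36.7% of the other 90 member peaks. Over all peaks the corresponding shares were 66.5% and 45.4%. The direction by class at the pathway genes thus followed that of the whole table. GC content offsets, which remove from each library its trend with GC content, left 6 called member peaks in CK, all less accessible, where 5.99% of all peaks were called and 3.4% called as less accessible. Of the 6, 2 were among the 7 called on the deposited counts. These 2 were the peak 11.1 kb upstream of Jak2 and the one in Unc13a.

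Signal summed over the whole window of each gene gave no call in any comparison. Of the 9 genes, 0 were called in C, K or CK against WT by edgeR or DESeq2, whereas 0.426%, 2.71% and 11.6% of 18058 protein-coding genes were called by edgeR. At an unadjusted p under 0.05 there were 0, 2 and 1 of 9, against 9.98%, 26.9% and 36.3% of all genes. Stat3 had the lowest p in CK. Its window held 368, 373, 358 and 367 CPM in WT, 375, 382, 362 and 363 in the C mice, 401, 404, 380 and 378 in the K mice, and 399, 370, 375, 393 and 404 in CK. All K mice were above all WT mice, and CK mouse 2 lay within the WT range. The log2 fold change was 0.081 in CK (95% interval 0.017 to 0.14, edgeR adjusted p = 0.0589) and 0.091 in K (edgeR adjusted p = 0.0745). The window includes the Stat5b promoter. In an exact two-sided permutation test of the Stat3 window alone, p was 0.0286 for K against WT, the smallest that 4 against 4 mice allow, and 0.0556 for CK against WT. Stat3 was picked for its low p in the same libraries, and these exact p-values were not adjusted over the other windows. They are therefore not independent support.

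The Jak1 and Jak2 windows pointed down in CK without passing. The log2 fold change was -0.060 for Jak1 (95% interval -0.12 to 0.0016, edgeR adjusted p = 0.148) and -0.058 for Jak2 (-0.12 to 0.0044, edgeR adjusted p = 0.168). The remaining CK values were -0.023 for Jak3, 0.036 for Tyk2, 0.043 for Stat5a, 0.064 for Stat5b, -0.018 for Stat6 and -0.028 for Socs1. Each of these intervals included 0 and stayed between -0.089 and 0.13. The median over all windows in CK was 0.027. With GC content offsets this median was -0.016, 12.7% of all windows were called as lower in CK, and 3 member windows were among them, namely Jak3 (-0.11, edgeR adjusted p = 0.00146), Socs1 (-0.11, edgeR adjusted p = 0.000993) and Stat6 (-0.072, edgeR adjusted p = 0.00376). Stat6 was then also lower in K (-0.088, edgeR adjusted p = 0.00537), as 2.54% of all windows were, and Socs1 lower in CK than in C (-0.11, edgeR adjusted p = 0.00516), as 1.99% were. Stat3 was higher in CK with the total Y share as a covariate (0.11, edgeR adjusted p = 0.00601), but was not called with Y signal outside the pseudoautosomal end (0.084, edgeR adjusted p = 0.0445). It was also called as higher when scaled to total counts (0.089, edgeR adjusted p = 0.00965).

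**Figure D5:**
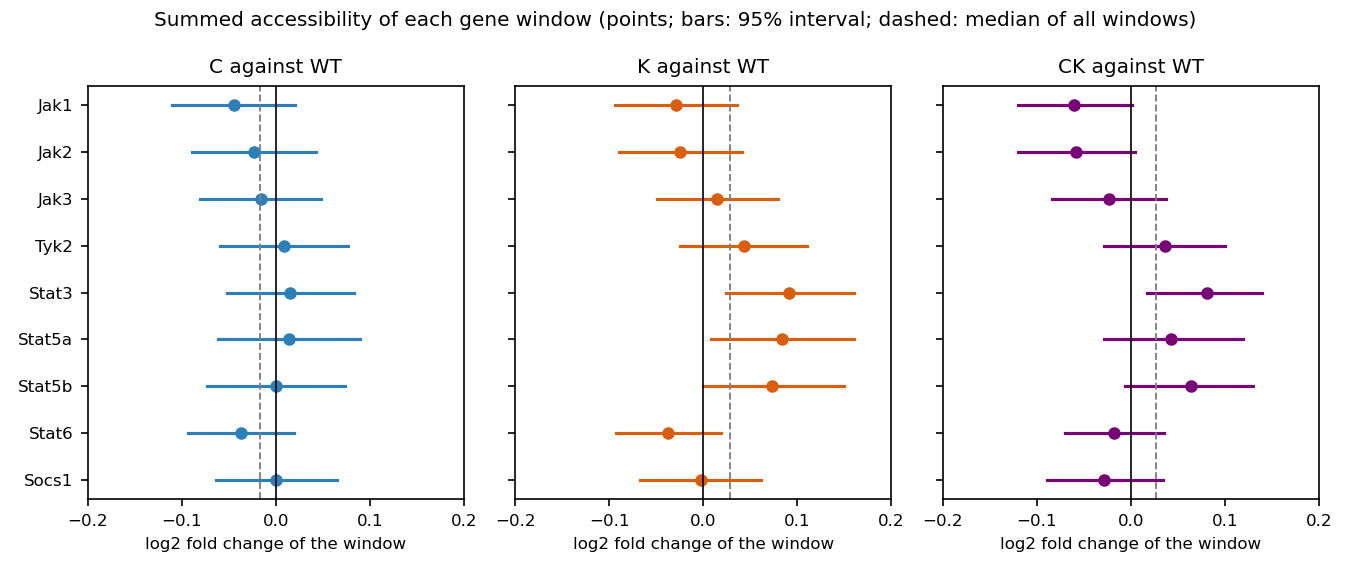
Log2 fold change of the signal summed over each gene window (x axis) in C, K and CK against WT, with points for the estimate, bars for its 95% interval and a dashed line at the median of all gene windows. The CK estimates run from -0.06 at Jak1 to 0.081 at Stat3, and in CK the Stat3 bar alone leaves out 0.

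The double mutant was then compared with each single mutant. No member peak was called in CK against K by either tool, with 6 at an unadjusted p under 0.05, against 7.35% of all peaks, and 0.00916% of all peaks called. Nor was any called in CK against C by edgeR, where 1.68% of all peaks were called. There 23 member peaks had an unadjusted p under 0.05, against 21.2% of all peaks. DESeq2 called 3, and edgeR called 3 with Y signal outside the pseudoautosomal end as a covariate. Shares of all peaks are not given for these 2 settings, so their counts do not compare members with other peaks. The lowest edgeR adjusted p-values in CK against C were 0.0136 for the Kcnh4 promoter (log2 fold change 0.31 ± 0.074) and 0.0156 for the peak in Unc13a (-0.41 ± 0.10). The Stat5b promoter was at 0.43 ± 0.12 (edgeR adjusted p = 0.0256) and the peak 11.1 kb upstream of Jak2 at -0.28 ± 0.074 (edgeR adjusted p = 0.0257). At these last 2 peaks the difference between CK and K was 0.01 ± 0.11 and 0.00 ± 0.076, so at both of them CK and K were close and C was close to WT.

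A further contrast set the CK change against the C change plus the K change, asking whether the joint effect departs from additivity. It called no member peak by either tool, and 0.0107% of all peaks by edgeR. At an unadjusted p under 0.05 there were 2 member peaks, against 3.73% of all peaks. For the called peak inside Jak1, where C and K were each near WT, the departure was -0.13 ± 0.13, within its error. For the windows, none of the 9 was called in CK against K, CK against C or CK against the sum, by either tool, where 0%, 4.06% and 0.0886% of all windows were called by edgeR. At an unadjusted p under 0.05 there were 0, 1 and 0 of the 9, the 1 being Stat3 in CK against C, and 7.76%, 30.7% and 2.59% of all windows.

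The wider pathway was read from a list of 43 genes in 3 roles. None of the 16 receptors and partner STATs, among them Il4ra and Il21r, and none of the 17 inhibitors, such as Socs3 and Ptpn6, was called at its promoter or over its window in CK. Of the 10 target genes, 1 was called over its window and 1 at its promoter. That is 1 of 43 windows and 1 of 43 promoters, where 11.6% of all windows and 6.84% of all peaks were called. Only 24.7% of all peaks lay within 1 kb of a transcript start. A share over promoter peaks alone is not given. Bcl2l1, which encodes the survival protein BCL-XL, held 297 ± 10.8 CPM over its window in WT, 303 ± 0.463 in the C mice, 307 ± 13.9 in the K mice and 327 ± 7.34 in CK (0.14 ± 0.03 SE, edgeR adjusted p = 0.00207). Its promoter was at 99.1 ± 2.16 CPM in WT and 103 ± 6.58 in CK and was not called (0.06 ± 0.042, edgeR adjusted p = 0.393). The medians of the 43 genes in CK were -0.02 for windows and 0.00 for promoters.

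Fcer2a, which encodes the low-affinity IgE receptor CD23 and is induced by IL-4 through STAT6, had the clearest change of the list, at its promoter (chr8:3693049-3695464). It measured 27.2, 29.1, 27.0 and 30.6 CPM in WT, 21.9, 22.3, 21.4 and 27.3 in the C mice, 10.8, 17.1, 18.2 and 19.1 in the K mice, and 18.9, 16.3, 17.2, 16.2 and 18.1 in CK. All K and CK mice lay below all WT and all C mice. The log2 fold change was -0.71 ± 0.11 in CK (edgeR adjusted p = 8.82e-05) and -0.80 in K (edgeR adjusted p = 0.000361), and in C it was -0.30 and did not pass (edgeR adjusted p = 0.380). CD23 is also a marker of follicular B cells. Of the 4 genes of that marker list with a promoter peak, 1 was called there, Fcer2a itself. The summed promoter level of the list was 106 to 110 CPM in WT and 88.0 to 99.1 CPM in CK. Ccr7 was called as lower over its window in CK. So were Cd79a (B cell list), Jchain (plasma cell list) and Itgam (myeloid list). These were 4 of 31 marker windows, where 11.6% of all windows were called in either direction. The part of follicular B cells in the Fcer2a result was not tested. The summed promoter level of the GC B cell markers was 293 to 322 CPM in WT and 266 to 302 CPM in CK, with none of 5 called.

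The promoters whose level over the 17 libraries was most like that of the Stat3 promoter, among 12737 on other chromosomes, were Rab11fip1 on chromosome 8 (Pearson r = 0.902, Spearman rho = 0.939) and Cript and Pigf on chromosome 17 (r = 0.900 and rho = 0.831 for both). Cript and Pigf share 1 promoter peak. Without the 2 libraries farthest from the median Stat3 level, r was 0.924 for Rab11fip1 and 0.798 for Cript and Pigf. These likenesses were picked as the highest of many and describe libraries that share depth and GC trends.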

How the data were processed

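The authors processed the reads with the nf-core ATAC-seq pipeline, aligned them to mm10, called consensus peaks over the libraries and deposited raw fragment counts per peak from featureCounts, with no normalization, replicates kept apart and a fragment counted in each peak it overlapped. The table holds the 17 GCB libraries, and the sorted CB and CC libraries were not analysed here. All 65483 peaks end inside the GRCm38 chromosomes. Genes came from GENCODE M21. Counts were scaled by TMM and fitted in edgeR 4.0.16 (R 4.3.3) with 1 coefficient per genotype over all 17 libraries, and tested by quasi-likelihood F tests with Benjamini-Hochberg adjustment over all peaks at 0.01. DESeq2 1.42.0 was an alternative. For windows, counts were summed over the peaks of each of 18058 protein-coding genes. The table had 0 columns of other samples.

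No peak was below the minimum of 10 summed counts. In simulated counts of CK against WT, 74 of 200 peaks changed 1.5-fold and 162 of 200 changed 2-fold were called. Only these 200 of 65483 peaks were changed, and every peak had the same spread. Far more peaks were called in the data, so the simulation does not give the sensitivity there. Motifs were searched in the central 300 bases of each peak, on both strands. Named were each gene's promoter peak (within 1 kb of a transcript start, highest mean count), its most accessible peak outside promoters, every called member peak, the peak of lowest p where none was called, and other pathway genes called in CK. Stretches with STAT-type motifs are shown for every member peak that held one. The members, the gene lists and these rules were chosen with earlier results of these data known. The alternatives were other scalings, GC content offsets, a Y chromosome covariate, a replicate block, other filters and windows, and leaving out each mouse. GC content offsets used 20 bins of peaks and entered the peak fits as offsets. For windows, each peak count was instead divided by the GC factor of its library and bin, and rounded before summing. The window fits kept the library sizes and TMM factors of the unaltered counts.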

Additional observations from a re-analysis of the deposited data

Results flagged for a closer look

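Of 136 groups of 4 or 5 mice tested for a single mouse standing apart by Dixon's ratio, 7 did, where chance gives about 1 in 20. WT mouse 4 stood above the other WT mice at 2 Jak1 peaks, the called peak inside the gene (26.6 CPM against 18.9 to 19.9) and the most accessible peak outside promoters (65.3 CPM against 57.8 to 59.0). CK mouse 2 was high at the Lrp1 promoter (20.4 CPM against 16.9 to 17.7). C mouse 4 was low at the Stat5b promoter (25.8 CPM against 28.6 to 28.9). CK mouse 1 was high at the Socs1 promoter (138 CPM against 129 to 130), and CK mouse 4 was low at the Prm1 peak of the Socs1 window (20.7 CPM against 22.3 to 23). C mouse 2 was low over the Socs1 window (327 CPM against 335 to 336).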

How the results depend on the processing

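Of 463 alternative values for 15 summary results, 420 stayed within 1.5 times the count or the spread of the median. The medians of C and K lie near 0 and changed sign under settings given below. For single peaks in CK or K, 519 kept their side of the threshold, 50 lost the call and 3 gained it. The count of called member peaks in CK (7) was 11 with the replicate block and GC content offsets together, 3 with only the compared genotypes fitted (0 gained, 3 lost), 12 at an adjusted p of 0.05, 0 at a fold change of 1.5, 2 with gene bodies alone and 2 with 10 kb windows. It ran from 2 to 7 with 1 mouse left out, at 2 without WT mouse 3 or 4, 3 without CK mouse 1 or 4 and 4 without CK mouse 2. In K (1) it was 3 with the block, 3 with block and GC content offsets, 0 with only the compared genotypes, 3 at 0.05, 0 at a fold change of 1.5, 0 with gene bodies or 10 kb windows, and 0 to 1 with 1 mouse left out. In CK against C (0) it was 1 with GC content offsets, 3 in DESeq2, 3 with Y signal outside the pseudoautosomal end as a covariate (chosen after seeing the data), 4 with the block, 2 with block and GC content offsets, 1 with only the compared genotypes, 5 at 0.05 and 0 to 3 with 1 mouse left out (1 without WT mouse 1, 3 without CK mouse 2, 1 without CK mouse 3). Called windows were 1 in K, 3 in CK and 1 in CK against C with GC content offsets, and 1 in CK with total counts and 1 with the total Y share. The median was 0.015 in C with total counts, -0.021 in K with gene bodies, and -0.08 and -0.078 in CK with gene bodies and 10 kb windows. With 1 mouse left out the medians ran from -0.016 to -0.00039 in C, -0.0046 to 0.024 in K and -0.04 to -0.015 in CK. The cause of these shifts was not tested. At an adjusted p of 0.05 in CK, 10082 of all 65483 peaks were called, beside the 12 member peaks. Most other counts here have no share of all peaks beside them, so they show only how the calls moved.

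The labels give the mice only a shared replicate number, so they were not treated as paired. Deviations of same-numbered libraries correlated at -0.0951 to 0.222 over 24 pairs, 12 of them above 0.1, with a median of 0.101 against -0.00698 for other numbers. For 10 of 17 libraries the best correlation was with their own number, a hint from the data and not from the design. With the replicate number as a block, 3 member peaks were called in K (1 without it) and 4 in CK against C (0 without it). In CK 10 member peaks were called, 4 more and 6 less accessible. CK mouse 5, whose number no other genotype shares, drops out of that fit. Shares of all peaks are not given for the block, so these counts do not compare members with other peaks. In the simulation most peaks changed 1.5-fold were not called, but its setting differs from the data, so it does not give their sensitivity.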
